A study of Homo sapiens with 24 samples.

Results

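The transcripts described here are those of the enzymes that break glucose down to lactate and of the transporter that brings glucose into the cell. They were taken by a list of identifiers: 14 Ensembl transcript IDs that stand for 10 genes, namely SLC2A1, HK2, PFKP, ALDOA, TPI1, GAPDH, PGK1, ENO1, PKM and LDHA. Of the 14 transcripts, 9 were listed in both deposited tables, which hold 11396 transcripts between them, and each of the 9 stands for a different gene. They were ENST00000426263 (SLC2A1), ENST00000290573 (HK2), ENST00000381125 (PFKP), ENST00000229270 (TPI1), ENST00000229239 (GAPDH), ENST00000373316 (PGK1), ENST00000234590 (ENO1), ENST00000319622 (PKM) and ENST00000540430 (LDHA). The other 5, ENST00000422447 and ENST00000379412 (LDHA), ENST00000335181 (PKM), ENST00000338110 (ALDOA) and ENST00000396705 (TPI1), were absent from both tables, so ALDOA, the aldolase of the pathway, was not analysed here. The tables list transcripts by ID alone, and the pairing of ID and gene was taken as given and could not be checked against a reference.

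Glycolysis splits glucose into pyruvate in a chain of reactions in the cytosol and yields ATP and NADH, and lactate dehydrogenase regenerates the NAD+ that the chain consumes. Many tumour cells run the pathway to lactate at a high rate even where oxygen is available, which is known as the Warburg effect, and MDA-MB-231 is a line often studied for it. Entry is controlled at the transporter, at hexokinase and at phosphofructokinase, while the enzymes of the lower part are among the most abundant proteins of a cell.

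The cells were MDA-MB-231, a human breast cancer line, in 4 groups of 3 replicates, each assayed by RNA-seq and by ribosome profiling, which sequences the mRNA fragments that ribosomes protect (24 libraries). One experiment compared LM2 cells, a subline that the labels describe as highly metastatic to the lungs, with parental cells labelled poorly metastatic. In the other experiment, cells labelled HNRNPC knockdown (sgHNRNPC) were compared with cells carrying a control guide (sgCTRL), both in the poorly metastatic line, and HNRNPC is an RNA-binding protein of the nucleus that coats unprocessed transcripts. All cells were grown in high-glucose medium with serum to subconfluence, per the labels' protocols. Nothing in the labels tells if the replicates came from separate cultures, and p-values therefore reflect only the spread of these libraries, part of which may be technical. LM2 is 1 derived line, the guide of the knockdown is not given, and the knocked-down gene and the markers of the line were not checked, because no table used here pairs transcript IDs with symbols.

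Tests covered 9342 of the 11252 transcripts listed for the LM2 experiment and 8283 of the 10767 listed for the knockdown, and all 9 transcripts were among those tested in both. RNA depth was 26810212 to 52584688 reads per library in the first table and 23344230 to 28334050 in the other. Sums of footprint values were 1023095 to 1134509 and 669584 to 753066 per library, and their depth in reads is unknown. Among the 9, the fewest RNA reads per library were those of SLC2A1, with 1118 to 1528 in the knockdown table, and the most were those of GAPDH, with up to 235751 in the LM2 table, so counting error in RNA was small for all of them. GAPDH, PGK1, ENO1, PKM, LDHA and TPI1 have near-identical pseudogene copies in the genome. How reads shared with those copies or with other transcripts of the same gene were assigned is not given in the sources used here, which leaves their values uncertain.

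The stretches before the start sites of these genes are shown because the promoters of glycolytic genes are known for 2 motifs. They are the pentamer ACGTG, a form of the core of the hypoxia response element bound by HIF-1, and CACGTG, the E-box bound by MYC and USF. The windows were the 250 bases before each RefSeq start (GRCh38.p14), searched on both strands, and every CACGTG holds ACGTG on both. ACGTG was found in 18.5% and CACGTG in 6.34% of the 35116 windows of all genes. The pentamer ACGTG was found in both windows of HK2, in the single windows of PGK1 and GAPDH, in 1 of 4 of PFKP, 1 of 2 of TPI1 and 1 of 2 of LDHA, and in none of the windows of SLC2A1, ENO1 and PKM, which have 1 each. GCGTG, the other form of that core, was found in 32.2% of all windows. It was in the single windows of ENO1 and PGK1, in both of HK2, in 1 of 4 of PFKP, and in 1 of 2 of TPI1 and of LDHA. The windows of SLC2A1, GAPDH and PKM held no GCGTG. Each stretch below is on the plus strand and lies wholly before the annotated start. The ACGTG matches are in capitals (CACGT is ACGTG read on the minus strand), with 12 bases on either side of the outer ones. Of the HK2 windows, the one that holds CACGTG is shown, and the other holds ACGTG in a longer stretch that is not.
HK2, chr2:74834964-74835038: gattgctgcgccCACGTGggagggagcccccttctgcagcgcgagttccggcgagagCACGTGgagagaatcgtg
PFKP, chr10:3069038-3069066: ccacgagcgcctACGTGatgcccggcccg
TPI1, chr12:6868076-6868104: cgtgcgccgccgCACGTagccccagactc
GAPDH, chr12:6535171-6535200: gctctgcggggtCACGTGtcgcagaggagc
PGK1, chrX:78104034-78104081: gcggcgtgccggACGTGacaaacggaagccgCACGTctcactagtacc
LDHA, chr11:18394366-18394506: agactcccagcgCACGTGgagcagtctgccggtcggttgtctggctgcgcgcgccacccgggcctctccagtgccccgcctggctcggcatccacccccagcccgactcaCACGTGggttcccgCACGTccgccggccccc
These matches are a description of letters and not of binding, and the transcripts measured here were not tied to 1 start site where a gene has several.

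Footprints per RNA differed widely among the 9 transcripts in the cells without the LM2 selection or the knockdown. SLC2A1, HK2, PFKP and PGK1 carried many footprints for their RNA in parental cells: 68.6 ± 3.19, 86.3 ± 9.83, 78.5 ± 5.08 and 63.5 ± 5.38 per 1000 units of RNA value (SD, n = 3). The remaining enzymes carried few, with 13.97 ± 0.729 for TPI1, 12.8 ± 0.719 for GAPDH, 20.3 ± 1.55 for ENO1, 23.6 ± 1.80 for PKM and 26.2 ± 0.934 for LDHA. The ranges over replicates of the 4 high and the 5 low transcripts did not overlap, but the transcripts were grouped by these same values. The median transcript tested had 43.1 per 1000, and the percentiles among transcripts tested ran from 5.87 (GAPDH) to 86.1 (HK2). The split went with RNA abundance: in parental RNA libraries the 5 low transcripts ranked 5 to 66 from the top and the 4 high ones 245 to 3427. The 100 most abundant transcripts by mean RNA together held 18.8% of RNA value in parental libraries but 8.62% to 9.19% of footprint value. Few footprints per RNA were thus shared by abundant transcripts as a group and not particular to this pathway. In control guide cells, in the separately normalized knockdown table, the same split held apart from SLC2A1: HK2, PFKP and PGK1 stood at the percentiles 82.6, 86.9 and 77.1, the other enzymes between 7.70 (GAPDH) and 30.1 (LDHA), and SLC2A1 at 44.2 against 76.1 in parental cells. The region of a transcript over which footprints and RNA were counted is not given in the sources used here, so the order of genes is an order of deposited values and not of ribosomes per codon.

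In LM2 cells the RNA of all 9 transcripts was lower than in parental cells, and footprints were lower with it. All 9 passed the test for RNA (limma, adjusted p under 0.05), in a table where 30.8% of transcripts were called lower. All 9 also passed for footprints, where 14.5% of transcripts were called lower. The median log2 change of the 9 was -0.30 for RNA and -0.46 for footprints, against -0.03 and -0.0011 over all transcripts tested. Of the value summed over a library, the 9 transcripts together made up 1.46% ± 0.0104 of RNA in parental and 1.20% ± 0.000514 in LM2 cells, and 0.961% ± 0.0376 and 0.720% ± 0.0632 of footprints (SD, n = 3). These are bulk measurements, in which less RNA per cell and fewer cells with that RNA cannot be told apart.

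**Figure D1:**
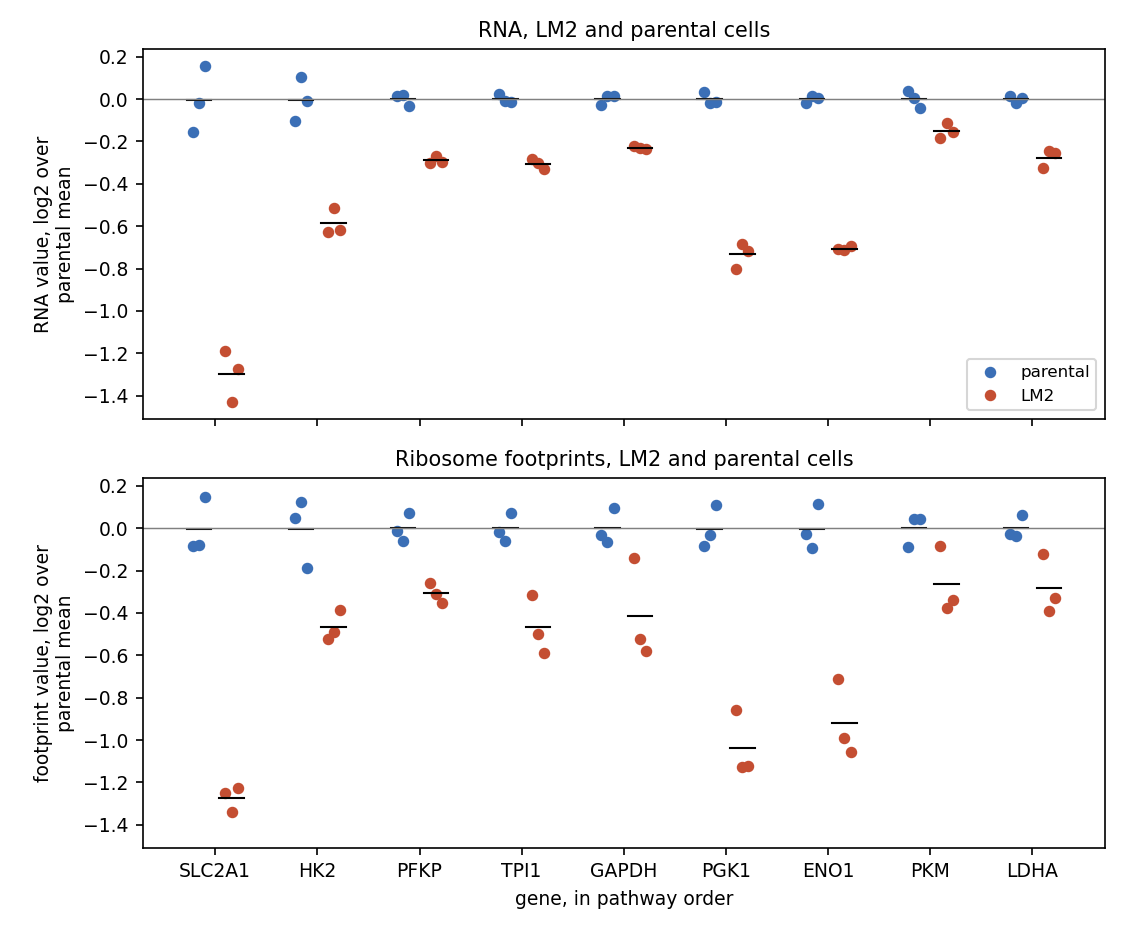
Each point is 1 library of the LM2 table, placed by its value on the log2 scale relative to the parental mean of the same transcript, for RNA (upper panel) and footprints (lower panel), with the group mean as a bar and genes in pathway order. RNA of LM2 libraries lay below that of parental libraries for all 9 transcripts as deposited, with SLC2A1 lowest at a mean change of -1.29. Footprints overlapped between the groups only for PKM. How many of all transcripts had groups apart was not counted. Of all tested, 30.8% were called lower in RNA and 14.5% in footprints (limma, adjusted p under 0.05). After quantile normalization the PKM change was above 0 in both readouts, that of LDHA was above 0 in footprints and that of GAPDH was 0 in RNA.

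The largest fall was at the entry step. SLC2A1 encodes GLUT1, the transporter that takes up glucose at the plasma membrane. Its RNA values were 4711, 5187 and 5845 in parental cells and 2305, 1949 and 2170 in LM2 cells, so that the highest LM2 library stood below the lowest parental one. This is a fold of 0.409 (log2 change -1.29 ± 0.07, SE, limma, adjusted p = 1.19e-12), which was the 87th lowest RNA change among the 9342 transcripts. Its footprint values were 339, 341 and 398 in parental cells and 151, 142 and 153 in LM2 cells. These groups were likewise apart, by -1.26 ± 0.09 on the log2 scale (limma, adjusted p = 4.12e-13).

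HK2, the hexokinase that phosphorylates glucose on entry and sits on the mitochondrial surface, had RNA values of 2366, 2734 and 2529 in parental cells and of 1645, 1779 and 1659 in LM2 cells. Its footprint values were 226, 239 and 192 against 153, 156 and 168, again without overlap. RNA fell by 0.58 ± 0.06 and footprints fell by 0.46 ± 0.10 on the log2 scale (limma, adjusted p = 8.28e-08 and 0.000551). PFKP, the platelet-type phosphofructokinase that makes the committed step of the pathway, fell less. Its RNA was 11746, 11782 and 11391 in parental and 9432, 9657 and 9476 in LM2 cells, and its footprints were 905, 876 and 959 against 764, 735 and 716. The log2 changes were -0.29 ± 0.03 and -0.31 ± 0.08 (limma, adjusted p = 2.71e-07 and 0.00374), and the groups did not overlap in either readout.

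Among the enzymes of the lower part, PGK1 and ENO1 fell most. PGK1, phosphoglycerate kinase, makes the first ATP that the pathway returns. Its RNA was 18076, 17395 and 17448 in parental cells and 10130, 10994 and 10746 in LM2 cells, a log2 change of -0.73 ± 0.04 (limma, adjusted p = 3.13e-13). Its footprints went from 1057, 1093 and 1207 to 617, 512 and 513, a log2 change of -1.03 ± 0.08 (limma, adjusted p = 9.14e-12). The LM2 libraries were well below the parental ones in both readouts. ENO1, the enolase that makes phosphoenolpyruvate, had RNA values of 99674, 101752 and 101066 in parental and of 61655, 61461 and 62369 in LM2 cells, a log2 change of -0.71 ± 0.03 (limma, adjusted p = 2.36e-15). Its footprints were 2004, 1917 and 2215 against 1251, 1029 and 983, a log2 change of -0.92 ± 0.09 (limma, adjusted p = 4.87e-10), and neither readout overlapped.

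The other 4 enzymes changed by less than a log2 value of 0.5 in both readouts. Among the RNA changes of all transcripts tested they stood between the percentiles 19 (TPI1) and 32.8 (PKM). TPI1, which interconverts the triose phosphates, had a log2 change of -0.30 ± 0.03 in RNA and -0.47 ± 0.08 in footprints. GAPDH, the dehydrogenase that makes the NADH of the pathway and is widely used as a reference gene, had RNA values of 168495 to 173616 in parental and 145845 to 147497 in LM2 cells, a log2 change of -0.23 ± 0.02, and one of -0.41 ± 0.09 in footprints. For LDHA, which turns pyruvate into lactate, both changes were -0.28, with SEs of 0.03 and 0.08. PKM, pyruvate kinase, changed least: -0.15 ± 0.03 in RNA and -0.26 ± 0.09 in footprints, where the highest LM2 value, 1734, exceeded the lowest parental value, 1725. Adjusted p of these 4 ran from 4.00e-09 (TPI1) to 0.000142 (PKM) in RNA and from 5.56e-05 (TPI1) to 0.0218 (PKM) in footprints (limma). The footprint call of PKM was lost without parental replicate 1, 2 or 3 (log2 changes of -0.31, -0.24 and -0.24) or without LM2 replicate 2 or 3 (-0.21 and -0.23). That of LDHA was lost without parental replicate 3 (-0.25) or LM2 replicate 2 (-0.23).

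Scaling mattered for the smaller changes. After quantile normalization PKM had a log2 change of 0.02 in RNA and of 0.17 in footprints and LDHA one of 0.03 in footprints, while GAPDH, which held the same rank in all 6 RNA libraries of the LM2 table, had 0 in RNA by construction. The footprint changes of GAPDH and PFKP shrank to -0.01 and -0.03 and no longer passed, and that of TPI1 shrank to -0.18 and passed. Without a variance trend the footprint calls of PFKP, GAPDH, PKM and LDHA were lost at unchanged values. The share of the 100 most abundant transcripts by mean RNA in the footprint value of a library moved with the groups. It was 8.62%, 8.67% and 9.19% in parental and 8.30%, 7.22% and 7.16% in LM2 cells, whereas the RNA share was 18.7% to 18.8% in all 6. GAPDH, PKM, ENO1, TPI1 and LDHA are themselves among the 100. LM2 replicate 1, with the highest share of its group, also had the highest footprint value of its group for 7 of the 9 transcripts, and parental replicate 3 for 7 of 9. The part of this in the footprint changes was not tested.

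The change in translation efficiency, that is of footprints per RNA, was tested as the limma interaction of assay and cells. It passed for 0 of the 9 transcripts in LM2 cells, in a table where 1.63% of transcripts were called in either direction. At an unadjusted p under 0.05 were 1 of the 9 and 1288 of the 9342 transcripts tested (limma). The transcript at an unadjusted p under 0.05 was PGK1, at -0.30 on the log2 scale (95% interval -0.51 to -0.09, limma, adjusted p = 0.155). SLC2A1, whose RNA fell most, had 69.7 ± 3.78 footprints per 1000 in LM2 cells against 68.6 ± 3.19 in parental cells, and an efficiency change of 0.03 with a 95% interval of -0.23 to 0.28. The interval was -0.17 to 0.14 for PFKP and -0.19 to 0.18 for LDHA. For GAPDH, TPI1, ENO1 and PKM the changes lay between -0.21 and -0.11, with intervals that reached no lower than -0.44, and HK2 had 0.13 (-0.12 to 0.38). An equal efficiency is not shown by a test that was not passed. Without LM2 replicate 1 the efficiency of 3 transcripts was called lower, with changes of -0.32 for GAPDH, -0.42 for PGK1 and -0.32 for ENO1. With quantile normalization 1 was called, LDHA, at 0.28.

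**Figure D2:**
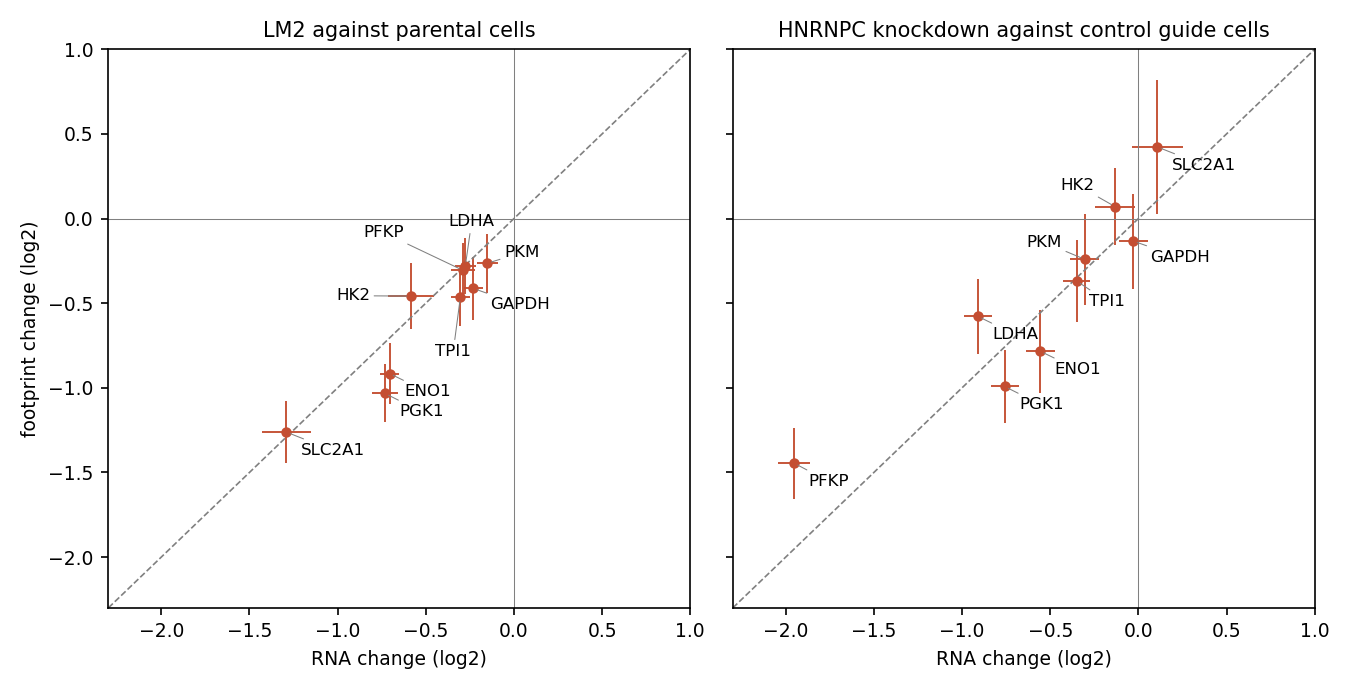
Each point is 1 transcript, placed by its log2 change in RNA (horizontal axis) and in footprints (vertical axis) as deposited, for LM2 against parental cells (left) and for HNRNPC knockdown against control guide cells (right), with 95% intervals and the line of equal change dashed. SLC2A1 sits lowest on the left and PFKP on the right, where PFKP lies above the line. The signs of PKM, LDHA and GAPDH depended on the scaling as given in the text.

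In HNRNPC knockdown cells the falls were unevenly spread along the pathway, and SLC2A1 was not among them. RNA of 7 of the 9 transcripts passed the test as lower and none as higher as deposited, in a table where 45.4% of transcripts were called lower. Footprints of 5 of 9 were called lower and none higher, against 20.7% of transcripts called lower. The median log2 change of the 9 was -0.35 in RNA and -0.37 in footprints. Over all transcripts tested the medians were -0.10 and -0.04, and the RNA median moved to 0.00471 with TMM scaling, 0.01 with quantile normalization and 0.01 with libraries set to 1 median, so a small fall in RNA as deposited is relative to that shift. The split of all RNA calls moved with it, from 61.8% lower as deposited to between 48.7% and 49.8% under these scalings. Under each of them 8 of the 9 transcripts passed in RNA, with SLC2A1 and GAPDH called higher and the HK2 call lost. The 9 transcripts together made up 1.65% ± 0.0297 of the RNA value with the control guide and 1.46% ± 0.00988 in the knockdown, and 1.21% ± 0.0719 and 0.915% ± 0.0970 of the footprint value (SD, n = 3).

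**Figure D3:**
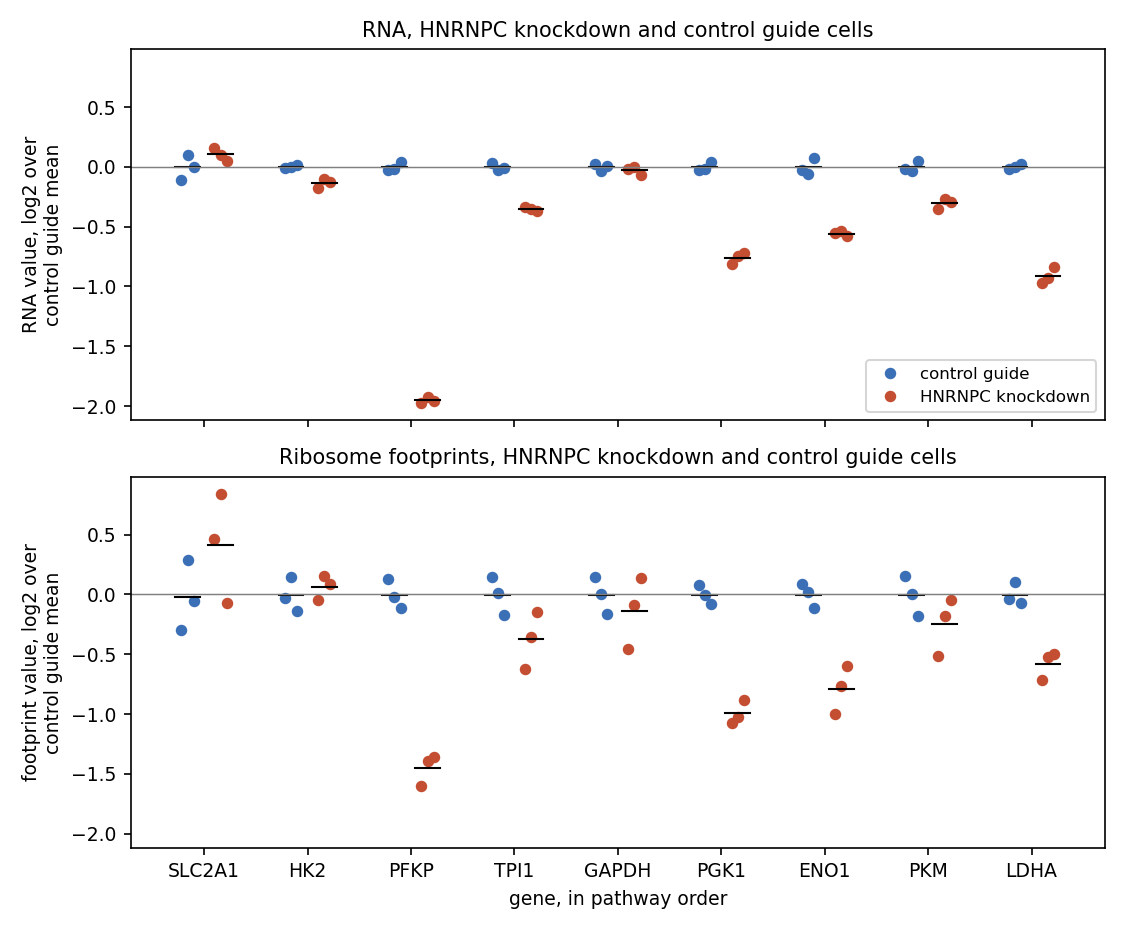
Each point is 1 library of the knockdown table, placed by its value on the log2 scale relative to the control guide mean of the same transcript, for RNA (upper panel) and footprints (lower panel), with the group mean as a bar. PFKP stands apart at -1.95 in RNA and -1.45 in footprints as deposited, LDHA, PGK1 and ENO1 follow, and SLC2A1 and GAPDH overlap between the groups in both readouts. The RNA change of GAPDH turned positive and passed as higher under TMM, quantile and median scaling. The footprint changes of GAPDH and PKM turned positive under quantile normalization.

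PFKP carried the largest fall. Its RNA values were 9487, 9562 and 9975 in control guide cells and 2456, 2549 and 2489 in knockdown cells, a fold of 0.258 (log2 change -1.95 ± 0.04, SE, limma, adjusted p = 3.24e-22). It was the 20th lowest RNA change among 8283 transcripts, and it lay between -1.97 and -1.81 under every setting tried. Its footprints were 772, 695 and 654 in control guide cells and 233, 269 and 275 in knockdown cells. The groups were far apart in both readouts, but footprints fell less than RNA, by 1.45 ± 0.10 on the log2 scale (limma, adjusted p = 1.86e-12).

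LDHA, PGK1 and ENO1 followed, at the percentiles 7.23, 10.6 and 18.4 among the RNA changes of all transcripts tested. LDHA, which closes the route to lactate, had RNA values of 40857, 41322 and 42052 in control guide cells and of 21145, 21783 and 23214 in the knockdown, a log2 change of -0.91 ± 0.04 (limma, adjusted p = 1.40e-16). Its footprints were 1008, 1109 and 984 against 628, 717 and 733, a log2 change of -0.58 ± 0.11 (limma, adjusted p = 9.97e-05). As in PFKP, the groups did not overlap and the fall was smaller in footprints than in RNA. PGK1 RNA was 17826, 17968 and 18720 in control guide and 10367, 10846 and 11008 in knockdown cells, and its footprints were 1122, 1056 and 1007 against 505, 521 and 575. The log2 changes of PGK1 were -0.76 ± 0.04 and -0.99 ± 0.11 (limma, adjusted p = 4.41e-15 and 9.36e-09). ENO1 RNA was 68455, 66771 and 73402 against 47279, 47929 and 46537, and its footprints were 1703, 1626 and 1483 against 803, 943 and 1061. Its log2 changes were -0.56 ± 0.04 and -0.78 ± 0.12 (limma, adjusted p = 3.59e-12 and 5.84e-06), and in PGK1 and ENO1 the fall was larger in footprints than in RNA, without overlap in either readout.

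TPI1 and PKM changed less, at the percentiles 30.8 and 34 among all RNA changes. TPI1 RNA went from 65232, 62478 and 63334 to 50512, 49955 and 49445, a log2 change of -0.35 ± 0.04 (limma, adjusted p = 5.18e-09). Its footprints overlapped, with 910, 833 and 730.5 in control guide and 535, 643 and 746 in knockdown cells, and changed by -0.37 ± 0.12 (limma, adjusted p = 0.0143). That footprint call was lost without control guide replicate 1 (-0.30) or 2 (-0.36), without knockdown replicate 1 (-0.25) or 2 (-0.38), and in the fit without a variance trend. PKM RNA fell by 0.30 ± 0.04 on the log2 scale (limma, adjusted p = 1.70e-07), while its footprint change of -0.24 (95% interval -0.51 to 0.03, limma, adjusted p = 0.157) did not pass, except without knockdown replicate 3 (-0.34).

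In RNA as deposited, HK2, GAPDH and SLC2A1 stood closest to the control. HK2 RNA was 1978, 1992 and 2012 in control guide cells and 1768, 1859 and 1830 in knockdown cells, a log2 change of -0.13 ± 0.06 that passed narrowly (limma, adjusted p = 0.0359). The call did not last: the change was -0.02 with TMM or median scaling and -0.01 with quantile normalization, and the call was lost without control guide replicate 1, 2 or 3 or knockdown replicate 1 or 3, at values from -0.14 to -0.11. HK2 footprints were 128, 145 and 119 against 127, 145 and 139 and changed by 0.07 (95% interval -0.16 to 0.30, limma, adjusted p = 0.659). GAPDH RNA was 151589, 145659 and 150401 against 147731, 148936 and 142040, a log2 change of -0.03 (95% interval -0.11 to 0.05, limma, adjusted p = 0.517). The change became 0.08 with TMM scaling, 0.09 with libraries set to 1 median and 0.18 with quantile normalization. Under each of these 3 scalings it passed as higher (limma, adjusted p = 0.0456, 0.0389 and 9.78e-05). The GAPDH footprint change was -0.13 (95% interval -0.41 to 0.15, limma, adjusted p = 0.479) and became 0.14 with quantile normalization. It passed in 1 of the 9 other settings that kept all replicates.

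SLC2A1 RNA was 1174, 1354 and 1262 in control guide cells and 1413, 1356 and 1311 in knockdown cells, and the groups overlapped. The log2 change of 0.11 (95% interval -0.04 to 0.25, limma, adjusted p = 0.167) did not pass as deposited but passed at 0.22 with TMM scaling, quantile normalization or libraries set to 1 median. Its footprint values were low, 33.3, 49.99 and 39.5 against 56.3, 73.4 and 39.0, and overlapped as well. The footprint change of 0.42 (95% interval 0.03 to 0.82, limma, adjusted p = 0.0859) passed only without control guide replicate 2 (0.57) or without knockdown replicate 3 (0.66). SLC2A1 and HK2, the transporter and the first enzyme, were the pair of transcripts with positive footprint changes as deposited, and neither passed.

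**Figure D4:**
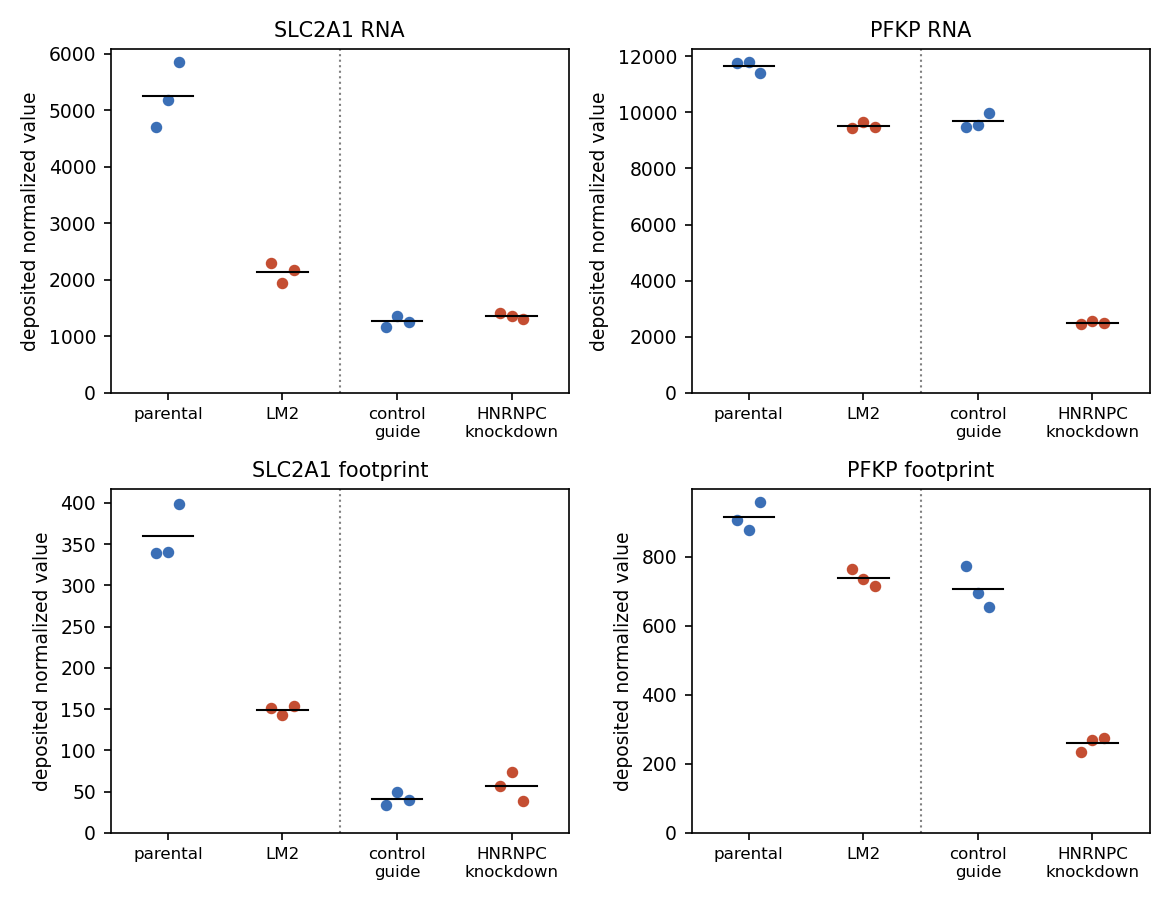
Deposited normalized values of SLC2A1 (left) and PFKP (right) in RNA (upper panels) and footprints (lower panels) are plotted for each library, with group means as bars, and the dotted line separates the LM2 table from the separately normalized knockdown table. SLC2A1 was lower in LM2 than in parental libraries and overlapped between knockdown and control guide, while PFKP RNA was 2456 to 2549 in the knockdown against 9487 to 9975 in control guide libraries.

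The footprint libraries of the knockdown table also differed within groups in the same sense across transcripts. Knockdown replicate 1 had the lowest footprint value of its group for 8 of the 9 transcripts and replicate 3 the highest for 7, while control guide replicate 3 was the lowest of its group for 8. LDHA ranked 44 to 50 from the top in control guide RNA libraries and 90 to 102 in knockdown ones. The 100 most abundant transcripts by mean RNA include GAPDH, PKM, ENO1 and TPI1. These 100 held 7.89%, 8.95% and 9.56% of footprint value in knockdown replicates 1, 2 and 3 and 9.97%, 9.66% and 9.02% in those of the control guide. The part of this in the footprint changes was not tested. Without knockdown replicate 1 the GAPDH footprint change was 0.03.

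Translation efficiency rose in knockdown cells for 1 of the 9 transcripts, PFKP, and fell for none, in a table where 3.72% of transcripts were called higher. PFKP had 65.5 to 81.3 footprints per 1000 units of RNA value in control guide cells and 94.9 to 110.5 in knockdown cells, without overlap. The log2 change was 0.51 ± 0.11 (limma, adjusted p = 0.0113), and PFKP stood at the 94.8th percentile of efficiency in knockdown cells against the 86.9th in control guide cells. The median efficiency change over all transcripts was 0.09, and the change of PFKP was 0.44 with TMM scaling or libraries set to 1 median and 0.49 with quantile normalization. Under these scalings the share of all efficiency calls that were lower went from 31.9% as deposited to between 56.2% and 58.2%. The PFKP call was lost without control guide replicate 2 (0.51) or 3 (0.43), without knockdown replicate 2 (0.49) or 3 (0.46), and in the fit without a variance trend (0.51). Footprints and RNA came from the same lysates, and with the lysate, read from the replicate number, as a block the change of 0.51 did not pass either (limma, adjusted p = 0.128). In simulated data the efficiency test made more false calls than its threshold allows, so its adjusted p may be too small. Efficiency is footprints over RNA, so error in the RNA value enters both changes with opposite signs.

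LDHA efficiency also had a positive change, with 23.4 to 26.9 footprints per 1000 units of RNA value in control guide and 29.7 to 32.9 in knockdown cells. These ranges did not overlap, but the log2 change of 0.33 (95% interval 0.10 to 0.56, limma, adjusted p = 0.0878) did not pass, except without knockdown replicate 1 (0.37) and with quantile normalization (0.27). PGK1 had an efficiency change of -0.23 (95% interval -0.44 to -0.03, limma, adjusted p = 0.176), and ENO1 one of -0.23 (-0.52 to 0.06, adjusted p = 0.361). For SLC2A1 the interval was wide, from -0.22 to 0.85 around 0.31, and its footprint values spread from 39.0 to 73.4 in the knockdown. The changes of HK2, PKM, TPI1 and GAPDH lay between -0.10 and 0.20 and their intervals all held 0. Quantile normalization also brought PKM (0.24, higher) and PGK1 (-0.26, lower) past the threshold. In all, 3 of 9 transcripts had an unadjusted p under 0.05 in the efficiency test (limma), against 1731 of the 8283 transcripts tested.

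**Figure D5:**
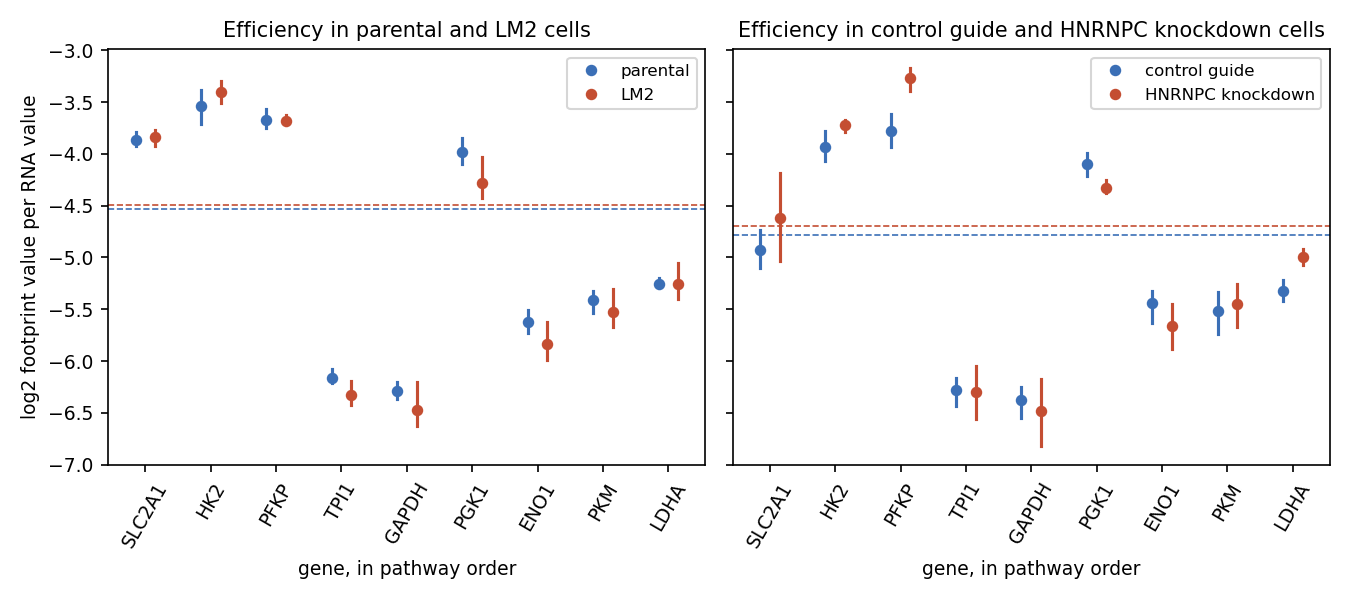
Points give the mean and lines the range over 3 replicates of the log2 footprint value per RNA value of each transcript, in parental and LM2 cells (left) and in control guide and HNRNPC knockdown cells (right), and dashed lines give the median of all transcripts tested in each group. SLC2A1, HK2, PFKP and PGK1 lie above the median in parental cells and TPI1 and GAPDH lowest, and PFKP is the transcript whose knockdown range lies above that of the control with a passed test.

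Set side by side, the experiments differed in which step fell most. SLC2A1 had an RNA change of -1.29 in LM2 and of 0.11 in knockdown cells, and PFKP one of -0.29 and of -1.95. LDHA had -0.28 and -0.91 and HK2 -0.58 and -0.13. PGK1 and ENO1 were nearer in size as deposited, with RNA changes of -0.73 and -0.76 for PGK1 and of -0.71 and -0.56 for ENO1. Their footprint changes were -1.03 and -0.99 for PGK1 and -0.92 and -0.78 for ENO1. Their place among all RNA changes differed: PGK1 stood at percentile 3.55 in LM2 and 10.6 in the knockdown, and ENO1 at 3.94 and 18.4. With TMM scaling the RNA changes were -0.71 and -0.65 for PGK1 and -0.68 and -0.45 for ENO1. Across the 9 transcripts the RNA and footprint changes had a Pearson correlation of 0.932 in LM2 and 0.907 in the knockdown, as a description of transcripts that share libraries. The experiments were normalized in separate tables and have no library in common, and the difference between their changes was not tested.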

How the data were processed

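RNA-seq and ribosome profiling libraries of MDA-MB-231 cells were analysed in 2 experiments, with 3 replicates per group and assay. Per the labels' protocols, cells were lysed with cycloheximide, and the same lysates gave footprints and RNA, the latter made into libraries with a SMARTer pico kit. The submitters' processing notes name hg38 and the tools Bowtie2 2.3.5, cutadapt 2.3, SAMtools and UMI-tools without roles. The annotation is not given in the sources used here, nor is the scaling. Each deposited value is the signal of 1 transcript in 1 library, normalized by the authors per the file headers. RNA values were whole multiples of 1 step per library (within 0.05 reads), whereas footprint values had no common step, so no count test was run although depth in RNA reads could be read off. All 24 columns of values were used, and the parental columns, named only for the line, were taken for the parental samples by replicate number.

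Transcripts with a mean of at least 10 in RNA and in footprints were tested on log2(value + 1), a scale that understates changes of low values, with limma 3.58.1 in R 4.3.3 (variance trend). Efficiency was the interaction of assay and cell group over 12 libraries. Two-sided p-values were adjusted by Benjamini-Hochberg over all transcripts tested in a table, with a threshold of 0.05, and all tests were within a table. The tests were checked on simulated data, in which the efficiency test made more false calls than its threshold allows, also with a separate spread for each assay. Of the columns, 0 pairs were identical, and replicates of RNA were further apart than sampling noise (chi-square per degree of freedom 4.47 to 7.46). The alternatives tried were pseudocounts of 0.5 and 5, no filter or a minimum mean of 50, quantile normalization, TMM scaling (reimplemented), libraries set to 1 median, no variance trend, a replicate block, a lysate block pairing footprints and RNA by number, and leaving out each replicate. A fit with a separate spread for each assay was added after the data were seen. Promoter stretches are from RefSeq (GRCh38.p14), with 10 of 10 genes matched. The members and lists were chosen with earlier results of these data known. Every member present was named. The 6 lists of other pathway genes (84 genes), the cell type markers and the genes most like a member were not analysed here, because 0 transcript IDs matched the reference name tables.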

Additional observations from a re-analysis of the deposited data

How the results depend on the processing

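Of the values of single transcripts recomputed under other settings, 764 kept direction and side of the threshold, 36 lost the call, 13 gained one and 30 changed direction, the last mostly small values. Counts of transcripts called moved by over 1.5 times in few cases: without a variance trend, LM2 footprints went from 9 to 5 and knockdown efficiency from 1 to 0, and quantile normalization gave 1 efficiency call in LM2 and 4 in the knockdown (PFKP, LDHA and PKM higher, PGK1 lower). Leaving out 1 replicate of a group, its RNA and footprint libraries together, gave 0 to 3 efficiency calls in LM2 and 0 to 2 in the knockdown. Replicate numbers did not pair cell groups (correlations of same-numbered deviations -0.195 to 0.0349), while RNA and footprints of the same number had correlations of -0.0061 to 0.126. A replicate block or a lysate block left 0 efficiency calls in the knockdown, ending that of PFKP (limma, adjusted p = 0.0666 and 0.128). The replicate block also ended the footprint calls of PKM in LM2 and of TPI1 in the knockdown.

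Quantile normalization turned the LM2 changes of PKM to 0.0215 in RNA and 0.172 in footprints and of LDHA to 0.0281 in footprints (6 footprint calls in all, with PKM called higher), and the LM2 efficiency changes of PFKP to 0.18, TPI1 to 0.0529, ENO1 to 0.0532, PKM to 0.15 and LDHA to 0.28. In the knockdown it turned GAPDH to 0.18 in RNA, called higher, and to 0.14 in footprints, and PKM to 0.0249 in footprints. TMM scaling and libraries set to 1 median turned knockdown GAPDH RNA to 0.0803 and 0.0862, both called higher. They turned the knockdown efficiency of PKM to -0.0077 and -0.0058, and 1 median turned the LM2 efficiency of SLC2A1 to -0.0216. Over left-out replicates the LM2 efficiency change ran from -0.0047 to 0.0726 for SLC2A1, from -0.0544 to 0.0349 for PFKP and from -0.107 to 0.0651 for LDHA. That of the knockdown ran from -0.143 to 0.112 for TPI1, from -0.0490 to 0.174 for PKM and from -0.261 to 0.0635 for GAPDH, and the GAPDH footprint change from -0.270 to 0.0268. The cause was not tested. The footprint depth in reads is unknown, and at a minimum mean of 50 SLC2A1 was not tested in the knockdown table.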

Other observations

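Parental and control guide cells are both described as the poorly metastatic line, yet SLC2A1 stood at different levels in them relative to its neighbours in the pathway. Within single RNA libraries SLC2A1 had 28.0 to 33.7 units per 1000 of GAPDH in parental cells and 13.3 to 15.6 in LM2 cells, against 7.75 to 9.30 in control guide cells and 9.11 to 9.56 in knockdown cells. Per unit of HK2 RNA the values were 1.90 to 2.31, 1.10 to 1.40, 0.594 to 0.680 and 0.717 to 0.799 in the same order. Footprints had the same order of tables, with 158 to 169 per 1000 of GAPDH in parental, 75.7 to 104 in LM2, 16.8 to 27.8 in control guide and 19.8 to 43.5 in knockdown cells. The control guide libraries thus lay below the LM2 libraries in each of these ratios. A ratio within a library does not depend on its scaling factor, but the tables were normalized separately and may differ in how reads were counted, and the difference between them was not tested.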
